A study of Mus musculus with 2 samples.

Results

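Oxidative phosphorylation is the process by which the mitochondrial inner membrane turns the electrons of NADH and succinate into ATP. Complex I (NADH dehydrogenase, Nduf genes) and complex II (succinate dehydrogenase, Sdh genes) take up the electrons, complex III (Uqcr genes) passes them to cytochrome c, complex IV (Cox genes) hands them to oxygen, and complex V (Atp5 genes) uses the resulting proton gradient to make ATP. Most subunits and all known assembly factors are encoded in the nucleus, and their mRNAs are short, abundant transcripts of nearly every cell. The marking of mRNA by N6-methyladenosine (m6A) is placed by the METTL3/METTL14 complex at the central A of a DRACH motif, where D is A, G or T, R is A or G and H is A, C or T. It is known to be dense around stop codons and in long exons and sparse next to exon junctions.

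The nuclear oxidative phosphorylation genes were taken as the protein-coding genes of GENCODE M21 whose symbols start with Nduf, Uqcr, Atp5 or Sdh, or with Cox4 to Cox8. The rule found 98 gene models of 21951 protein-coding genes, with 97 symbols, since Atp5o names a gene and a longer readthrough model that overlaps it. They comprised 86 genes named as subunits and 12 assembly factors (Ndufaf and Sdhaf). Grouped by the start of the symbol alone, complex I had 46 members, complex II 8, complex III 8, complex IV 18 and complex V 18, assembly factors included. A symbol need not match the complex that holds the protein. A few symbols caught by the rule are not core subunits, such as Cox7a2l, known for its part in joining complexes III and IV into supercomplexes.

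GLORI deaminates unmethylated adenosines so that they are read as G, while m6A is still read as A. The animal, a female F1r pup taken at P0, was the offspring of a C57BL/6J (C57) mother and a PWK/PhJ (PWK) father. Its cerebellum gave 1 list of sites and its cerebrum another, both from poly(A)+ RNA given the GLORI+ treatment. Each tissue thus had 1 library, and no test between the tissues was possible. The lists hold positions without methylation rates or read counts, so that an adenosine missing from a list may be unmethylated, unexpressed or thinly covered. Shares are given with 95% Wilson intervals, which treat sites or genes as independent and cover counting error only.

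The cerebellum list held 79355 sites and the cerebrum list 188295. In exons of the members, the cerebellum list had 94 sites and the cerebrum list 214, at 259 distinct positions in all. The tissue labels were set against 10 hindbrain and 10 forebrain genes. A DRACH site was listed for 7 of the hindbrain genes in the cerebellum and 4 in the cerebrum, and for 4 of the forebrain genes in the cerebellum and all 10 in the cerebrum. Of the hindbrain genes, En1, En2 and Barhl1 had 5, 8 and 11 DRACH sites in the cerebellum list and 0 in the cerebrum list. Gbx2 (1 and 2), Cbln1 (11 and 15) and Zic4 (4 and 15) had more in the cerebrum list. Zic1 had 14 in each, and Atoh1, Lmx1a and Pax2 had 0.

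The DRACH sites that both libraries listed were seen in each of the lists, and a selection is printed to show what the sites look like. Each line gives the 25 genomic bases (GRCm38, the assembly of mm10) around a site on the transcript strand, 5′ to 3′, with the DRACH motif in capitals and the listed adenosine at its centre. The Sdhaf2 windows are from the member with the most sites, the Uqcrfs1 windows from one with a high share of its DRACH adenosines listed, the Sdhaf1 windows from an mRNA without introns, and the Ndufs1, Ndufv1, Ndufa10, Atp5f1 and Cox6a1 windows from last exons at a like distance from the final junction.
Uqcrfs1 first base after the stop codon, chr13:30540718-30540742, minus strand: gttgtgggttAGACAcgtggactca
Uqcrfs1 3′ UTR, chr13:30540710-30540734, minus strand: ttagacacgtGGACTcagggcctag
Uqcrfs1 CDS, chr13:30540954-30540978, minus strand: cccagttaagGGACCcacagcatga
Uqcrfs1 CDS, chr13:30541192-30541216, minus strand: tcttacctggTAACTgcaactacta
Sdhaf2 3′ UTR, chr19:10502901-10502925, minus strand: gcttctccttAGACTcttgaatctc
Sdhaf2 3′ UTR, chr19:10502877-10502901, minus strand: ctcccaggaaAGACAtgtaatatgt
Sdhaf2 3′ UTR, chr19:10502858-10502882, minus strand: atatgttagcTGACTcattctaacc
Sdhaf1 3′ UTR, chr7:30321698-30321722, minus strand: acctcttgacAGACAgctctcttga
Sdhaf1 3′ UTR, chr7:30321686-30321710, minus strand: acagctctctTGACTtcttaagaac
Sdhaf1 3′ UTR, chr7:30321675-30321699, minus strand: gacttcttaaGAACAcacccacctc
Ndufs1 3′ UTR, chr1:63143777-63143801, minus strand: gacagtaaatGGACAttgctgtaat
Ndufv1 3′ UTR, chr19:4007521-4007545, minus strand: ttgggaaactGGACAataaacaagt
Ndufa10 3′ UTR, chr1:92439764-92439788, minus strand: ccaactctgtGAACTccagagcttt
Atp5f1 3′ UTR, chr3:105942912-105942936, minus strand: tatatgtgaaGAACTctttctgtat
Cox6a1 3′ UTR, chr5:115345779-115345803, minus strand: cactggttttGGACCcttactctgt

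A listed site of any sequence was found in 40 of the 98 members in the cerebellum (40.8%, 31.6% to 50.7%) and in 66 in the cerebrum (67.3%, 57.6% to 75.8%). Over all protein-coding genes, whether expressed in brain or not, the shares were 39.8% and 55.8%. Counting DRACH sites only, 31 members had a site in the cerebellum (31.6%, 23.3% to 41.4%) and, for the cerebrum, 38 (38.8%, 29.7% to 48.7%), against 34.3% and 44.2% of all protein-coding genes. The DRACH shares of the members thus lay within counting error of those over all coding genes in the cerebellum and in the cerebrum. Both libraries listed a DRACH site in 26 members, the cerebellum alone in 5, the cerebrum alone in 12, and neither in 55. Sites were listed in 24 members without any of them being DRACH, among them Atp5a1, the alpha subunit of the ATP synthase head, and Sdhb, the iron-sulfur subunit of complex II.

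The DRACH sites were spread unevenly over the members. Of the 108 distinct DRACH sites of the members, 56 lay in the 10 members with the most, while 20 members had 1 DRACH site each and 7 had 2. Over sites of any sequence, the 10 members with the most held 95 of 259. Sdhaf2, the factor that helps insert the flavin cofactor into Sdha, stood first with 10 DRACH sites in the cerebellum list and 13 in the cerebrum list, 7 of them shared. Cox7a2l had 5 and 4, with 3 shared. Sdhaf1, an assembly factor that serves iron-sulfur insertion into Sdhb, had 3 and 6, with 3 shared, and Ndufaf1, an early complex I assembly factor, had 2 and 5, with 2 shared.

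**Figure D1:**
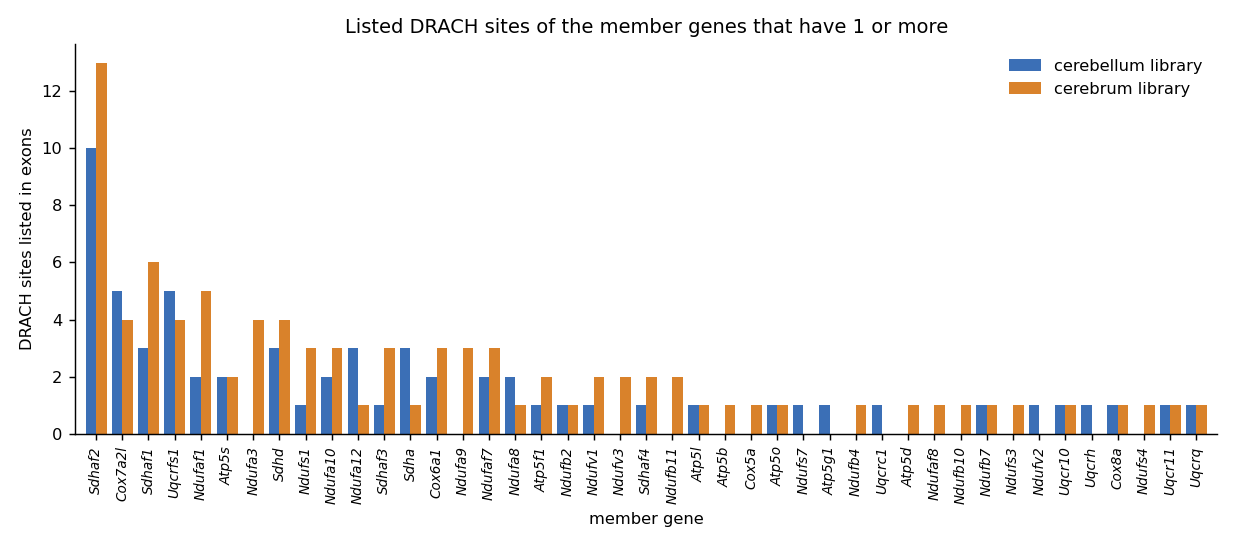
Number of listed DRACH sites in exons of each member with 1 or more, in the cerebellum library and in the cerebrum library. Sdhaf2 stands apart with 10 and 13 sites, and most other members with a site have between 1 and 3 in either library.

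The Sdhaf2 sites lay mostly in an alternative last exon. All 20 of its distinct sites lay in exons of coding transcripts, and 16 were DRACH. Of these, 14 lay in the 2596-nt last exon of a 4-exon isoform, between 45 and 1213 nt after the stop codon, and the other 2 in an internal coding exon, 83 and 86 nt from a junction. The representative isoform of the gene (the longest whose coding sequence is complete and that has UTRs at either end), with 3 exons and 3916 nt, ends in another 3′ UTR, where 0 of the 20 sites were found. On that isoform 0 of 78 DRACH adenosines were listed in the cerebellum and 2 in the cerebrum, whereas on the APPRIS principal isoform 10 and 13 of 71 were listed.

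Uqcrfs1 encodes the Rieske iron-sulfur protein, which takes electrons from ubiquinol in complex III. Its 8 sites in the cerebellum list and 10 in the cerebrum list included 6 that were the same. Of 20 DRACH adenosines in its 1363-nt mRNA, 5 were listed in at least 1 library, and 4 of these in both. A pair of these shared sites lay 1 and 9 nt after the stop codon, and the motif of the nearer one begins within the stop codon TAG (the first window printed above). The other shared DRACH sites lay in the coding sequence, at -235 and -473 nt from the stop codon. All lay in its 1034-nt second and last exon. Both shared sites of Uqcrfs1 outside DRACH, at -173 and -387 nt, had the 5-mer GTACT.

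By complex, subunit genes of complex III had sites most often and those of complex IV least often. All 8 complex III subunit genes had a site in each library (67.6% to 100%), against 39.8% and 55.8% of all protein-coding genes. DRACH sites were listed by the cerebellum library in 6 of them (40.9% to 92.9%) and by the cerebrum library in 4 (21.5% to 78.5%). The shares over all protein-coding genes were 34.3% and 44.2%. Uqcr10, Uqcr11 and Uqcrq, small subunits of this complex, had 1 DRACH site each, at the same position in both libraries. Of the DRACH adenosines of complex III subunit mRNAs, 5.78% were listed in the cerebellum (10 of 173, 3.17% to 10.3%) and 4.05% in the cerebrum (7 of 173, 1.97% to 8.12%). Uqcrfs1 alone gave 5 of the 10 and 4 of the 7.

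In complex IV, 4 of 18 genes had a site in the cerebellum and 6 in the cerebrum. The 7 isoforms known mainly from muscle, lung or testis (Cox4i2, Cox6a2, Cox6b2, Cox7a1, Cox7b2, Cox8b and Cox8c), grouped after the values were seen, had 0 sites between them. Of the other 11 genes, 6 had a site and 4 a DRACH site, namely Cox5a, Cox6a1, Cox7a2l and Cox8a. Cox4i1, Cox5b, Cox6b1, Cox6c and Cox7a2, which encode widely expressed subunits, had no listed site in either library. Cox6a1 had 2 DRACH sites in the cerebellum list and 3 in the cerebrum list out of 11 DRACH adenosines, all in its 3′ UTR.

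Of the 38 complex I subunit genes, 9 had a DRACH site in the cerebellum and 15 in the cerebrum, and 1.26% (0.719% to 2.18%) and 2.30% (1.52% to 3.46%) of their 956 DRACH adenosines were listed. Among the core subunits, Ndufs1, the large iron-sulfur subunit, had 1 DRACH site in the cerebellum and 3 in the cerebrum, and Ndufv1, which binds NADH and flavin, had 1 and 2. Of the accessory subunits, Ndufa9 had 3 DRACH sites in the cerebrum between 84 and 116 nt after the stop codon, and 0 sites in the cerebellum. Ndufa12 showed the opposite order with 3 DRACH sites in the cerebellum list and 1 in the cerebrum list.

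Complex II subunits were led by Sdhd, a membrane anchor, with 3 DRACH sites in the cerebellum list and 4 in the cerebrum list. Sdha, the flavoprotein subunit, had 3 and 1, the shared one lying 674 nt after the stop codon. Sdhb had 3 sites in the cerebrum and 0 in the cerebellum, none of them DRACH, and Sdhc had no site. Complex V subunits were close to complex I, with 6 listed of 423 DRACH adenosines in the cerebellum (1.42%, 0.652% to 3.06%) and, for the cerebrum, 7 (1.65%, 0.804% to 3.38%). Neither the alpha (Atp5a1) nor the catalytic beta subunit (Atp5b) of the ATP synthase head had a DRACH site in a coding transcript. Atp5a1 had 3 sites in the cerebellum list and 1 in the cerebrum list, all in the CDS and none shared, and Atp5b had 1 and 6, at 7 distinct positions of which 5 lay only in retained-intron transcripts. Atp5s, which encodes coupling factor B, had 2 DRACH sites in each library and shared none.

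Assembly factors had a DRACH site somewhat more often than subunits, with intervals that overlap. The intervals of both groups hold the shares over all protein-coding genes, 34.3% in the cerebellum and 44.2% in the cerebrum. DRACH sites were listed in 6 of 12 assembly factor genes in the cerebellum and 7 in the cerebrum, and in 25 and 31 of 86 subunit genes. All 4 Sdhaf genes and Ndufaf1 and Ndufaf7 had DRACH sites in both libraries, Ndufaf8 had 1 in the cerebrum only, and Ndufaf2 to Ndufaf6 had no site. Per DRACH adenosine, the comparison depended on the isoform of Sdhaf2. Of subunit DRACH adenosines 2.16% (1.60% to 2.91%) were listed in the cerebellum and 2.57% (1.96% to 3.38%) in the cerebrum, and of those of assembly factors 1.63% (0.860% to 3.07%) and 3.99% (2.65% to 5.96%), all on representative isoforms and with intervals that overlap. On the APPRIS principal isoforms, an alternative for these groups chosen after seeing the data, assembly factors were at 3.59% (2.31% to 5.54%) and 6.24% (4.48% to 8.63%) and subunits at 2.24% (1.66% to 3.02%) and 2.67% (2.03% to 3.50%), and the cerebrum intervals no longer overlapped. Without Sdhaf2, assembly factors on these isoforms were at 1.97% (1.04% to 3.69%) and 4.37% (2.84% to 6.65%), which overlaps the subunits again.

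The mRNAs of the members were short and had DRACH adenosines at the same density as other coding mRNAs. The median representative isoform had 908 nt and 19 DRACH adenosines in the members and 2722 nt and 55 in the other coding genes. The density was 20.4 DRACH adenosines per kb in both. Of 2495 DRACH adenosines in 97 members, 51 were listed in the cerebellum (2.04%, 1.56% to 2.68%) and, for the cerebrum, 72 (2.89%, 2.30% to 3.62%), against 3.03% and 5.16% over all nuclear coding genes. On these isoforms the members' intervals lie below the values over all nuclear coding genes. On the APPRIS principal isoforms, where Sdhaf2 goes from 0 to 10 listed in the cerebellum, members had 2.54% (61 of 2403, 1.98% to 3.25%) and 3.45% (83 of 2403, 2.79% to 4.26%) and other coding genes 3.05% and 5.21%, so that the cerebellum interval then held the value of the other genes. With Sdhaf2 left out as well, the members were at 2.19% (1.67% to 2.86%) and 3.0% (2.38% to 3.78%). Across members, the number of listed DRACH sites ranked loosely with the number of DRACH adenosines (Spearman's rho 0.30 in the cerebellum and 0.34 in the cerebrum, 97 genes that share their library, given as a description). Over 21392 other coding genes rho was 0.42 and 0.46. Members with a DRACH site had a median of 24 DRACH adenosines and those without had 16, with ranges of 9 to 114 and 2 to 86 that overlap almost throughout.

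Below 2000 nt, members had a DRACH site more often than other genes of like length. Of the 46 members of 500 to 1000 nt, 8 had one in the cerebellum (17.4%, 9.09% to 30.7%) and, for the cerebrum, 12 (26.1%, 15.6% to 40.3%), against 5.26% and 9.08% of 1939 other coding genes of that length. Of the 29 members of 1000 to 2000 nt, 11 (37.9%, 22.7% to 56.0%) and 14 (48.3%, 31.4% to 65.6%) had one, against 16.1% and 24.6%. For members of 2000 to 4000 nt the intervals held the value of the other genes in both libraries. The lists carry no expression level, and how many other genes of these lengths are expressed in brain is not known from them; the part of expression in this difference was not tested.

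**Figure D2:**
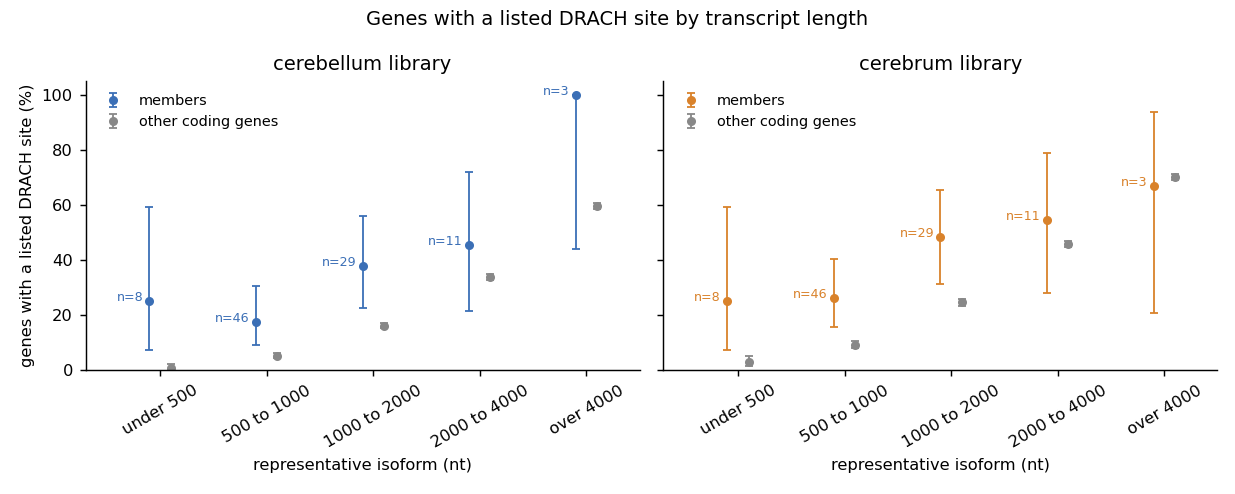
Percent of genes with 1 or more listed DRACH sites by length of the representative isoform, for members (coloured, with the number of genes) and other coding genes (grey), in each library; bars are 95% Wilson intervals. Members lie above the other genes in the classes below 2000 nt, and the 3 members over 4000 nt give no precise share.

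When the rates of other coding genes in the same class of region, junction distance and transcript length were applied to the members' DRACH adenosines, 45.4 listed sites resulted for the cerebellum and 79.9 for the cerebrum. The 51 and 72 observed are 1.12 and 0.901 times these numbers. Without length as a class the ratios were 0.778 and 0.647. With the background limited to genes that had a site in either library they were 0.621 and 0.473, and with members limited in the same way 0.803 and 0.618, so that in the cerebellum the ratio passed from above to below 1 with the genes that members were set against, while in the cerebrum it was below 1 with each of these backgrounds. On the APPRIS principal isoforms the ratios by all classes were 1.39 and 1.07.

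The position of a DRACH adenosine relative to exon junctions separated listed from unlisted ones in the members. Of the members' DRACH adenosines, 43.9% lay within 100 nt of a junction, compared with 37.3% in other coding genes. In that zone 4 of 1096 were listed in the cerebellum (0.365%, 0.142% to 0.935%) and, for the cerebrum, 9 (0.821%, 0.433% to 1.55%). Between 100 and 200 nt, 18 of 285 (6.32%, 4.03% to 9.76%) and 23 (8.07%, 5.44% to 11.8%) were listed. Beyond 200 nt or without a junction, 29 of 1114 (2.60%, 1.82% to 3.71%) and 40 (3.59%, 2.65% to 4.85%) were listed. Other coding genes had 0.542%, 5.25% and 4.41% in these zones in the cerebellum and 1.11%, 8.84% and 7.42% in the cerebrum. On these representative isoforms, members were therefore within counting error of other genes up to 200 nt in both libraries, and below them only beyond 200 nt. The 10 cerebellum DRACH sites of Sdhaf2 lie on another isoform, 217 nt or farther from a junction, and are not in these counts. Zones on the APPRIS principal isoforms were not counted, so the cerebellum difference beyond 200 nt may depend on the isoform of this gene. How members compared with other genes also varied with transcript length. Members of 1000 to 2000 nt had 3.11% (2.12% to 4.56%) and 3.99% (2.84% to 5.57%) listed, against 1.24% and 2.39%. Shorter classes had the same order. At 2000 to 4000 nt the intervals held the other genes' values. The 3 members over 4000 nt had 0.971% (0.331% to 2.82%) and 1.29% (0.505% to 3.28%), against 4.02% and 6.56%. The part of these lengths in the difference beyond 200 nt was not tested.

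**Figure D3:**
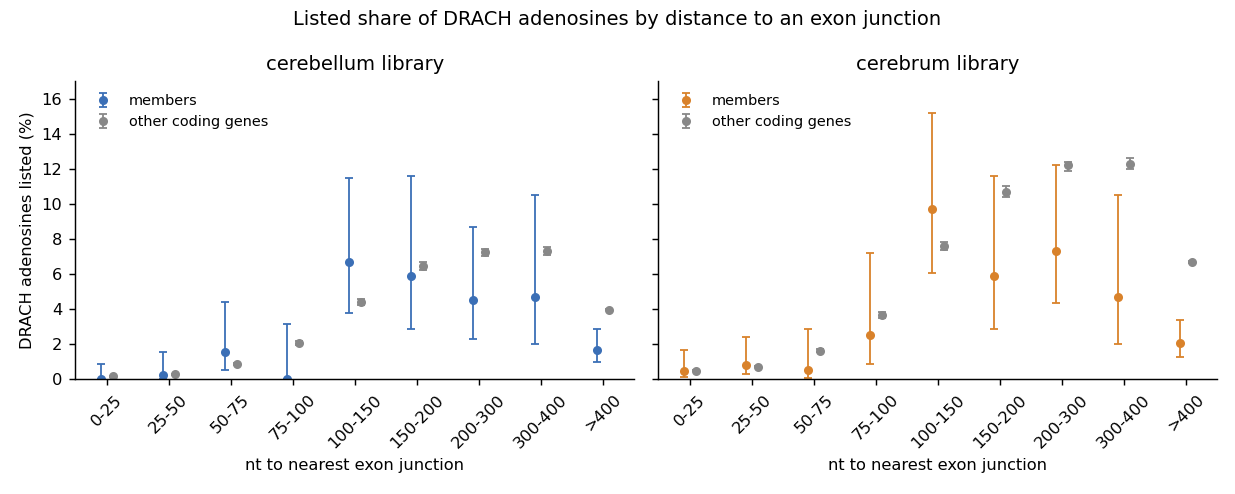
Percent of DRACH adenosines listed as sites by distance to the nearest exon junction of the spliced representative isoform (intronless isoforms left out), for members (coloured) and other coding genes (grey); bars are 95% Wilson intervals. Listed shares are low within 100 nt of a junction and rise past it in both gene groups, and beyond 400 nt members lie below the other genes.

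None of the DRACH sites shared by both libraries lay near a junction. Of the 43 shared DRACH sites, which lay in 24 members, 0 were within 100 nt of one (up to 8.20% by the interval), 15 were at 100 to 200 nt, 25 beyond 200 nt and 3 in the intronless Sdhaf1. The closest was at 106 nt, in Uqcr11. Among DRACH sites of coding transcripts found in 1 library, 4 of 18 in the cerebellum and 9 of 40 in the cerebrum were within 100 nt. Shared sites were also nearly all in the last exon, 41 of 43 (95.3%, 84.5% to 98.7%). The exceptions were both in Ndufaf1, whose 658-nt second exon held shared sites 107 and 314 nt from its ends.

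In some members with many exons the shared site lay shortly past the zone around the final junction. Ndufs1 has 19 exons, 86.2% of its bases lie within 100 nt of a junction, and of its 66 DRACH adenosines the 1 listed in both libraries is in the last exon, 42 nt after the stop codon and 134 nt from the final junction. Ndufv1, with 10 exons, has its shared site 46 nt after the stop codon and 133 nt from the final junction. The same holds for a shared site of Ndufa10 at 63 and 132 nt and of Atp5f1 at 62 and 140 nt. Cox6a1, with only 3 exons, also had a shared site at such a place, at 52 and 136 nt. Others with many exons had shared sites farther into the last exon. Sdha, with 15 exons, had its site 761 nt from the final junction, Ndufaf7, with 9 exons, had sites at 780 and 809 nt, and a further Ndufa10 site lay at 380 nt. Sequences at the sites near the junction zone, printed above, were chosen as DRACH sites, so that their DRACH form is no result. Ndufs1 and Ndufv1 have GGACA, Ndufa10 and Atp5f1 have GAACT, and Cox6a1 has GGACC.

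Regions followed the same order. Of the DRACH sites on representative isoforms, the 3′ UTR held 42 of 51 in the cerebellum (82.4%, 69.7% to 90.4%) and 53 of 72 in the cerebrum (73.6%, 62.4% to 82.4%), although it held only 45.7% of the members' DRACH adenosines. In other coding genes the 3′ UTR held 57.0% and 55.4% of the DRACH sites, and 43.0% of the DRACH adenosines. The coding sequence held 9 and 18 of the members' DRACH sites, and the 5′ UTR 0 and 1, the latter in Ndufb11. In the first 200 nt after the stop codon, 27 of 334 DRACH adenosines (8.08%, 5.61% to 11.5%) were listed in the cerebellum and 33 (9.88%, 7.12% to 13.6%) in the cerebrum, against 7.67% and 12.6% in other coding genes. With sites outside DRACH included, the 3′ UTR share was 63.9% (52.4% to 74.0%) in the cerebellum and 52.7% (44.7% to 60.7%) in the cerebrum.

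Short exons other than the last had few listed DRACH adenosines. In first and internal exons under 400 nt, 1 of 929 DRACH adenosines was listed in the cerebellum (0.108%, 0.0190% to 0.607%) and, for the cerebrum, 7 (0.753%, 0.365% to 1.55%), against 0.288% and 0.658% in other coding genes. In such exons of 400 nt or longer, members had 2 of 153 (1.31%, 0.359% to 4.64%) and 7 (4.58%, 2.23% to 9.14%), against 6.85% and 11.4%. Ndufaf1 and Ndufv3 each held CDS sites in an exon of this size, the third exon of Ndufv3 having 2 DRACH sites in the cerebrum.

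**Figure D4:**
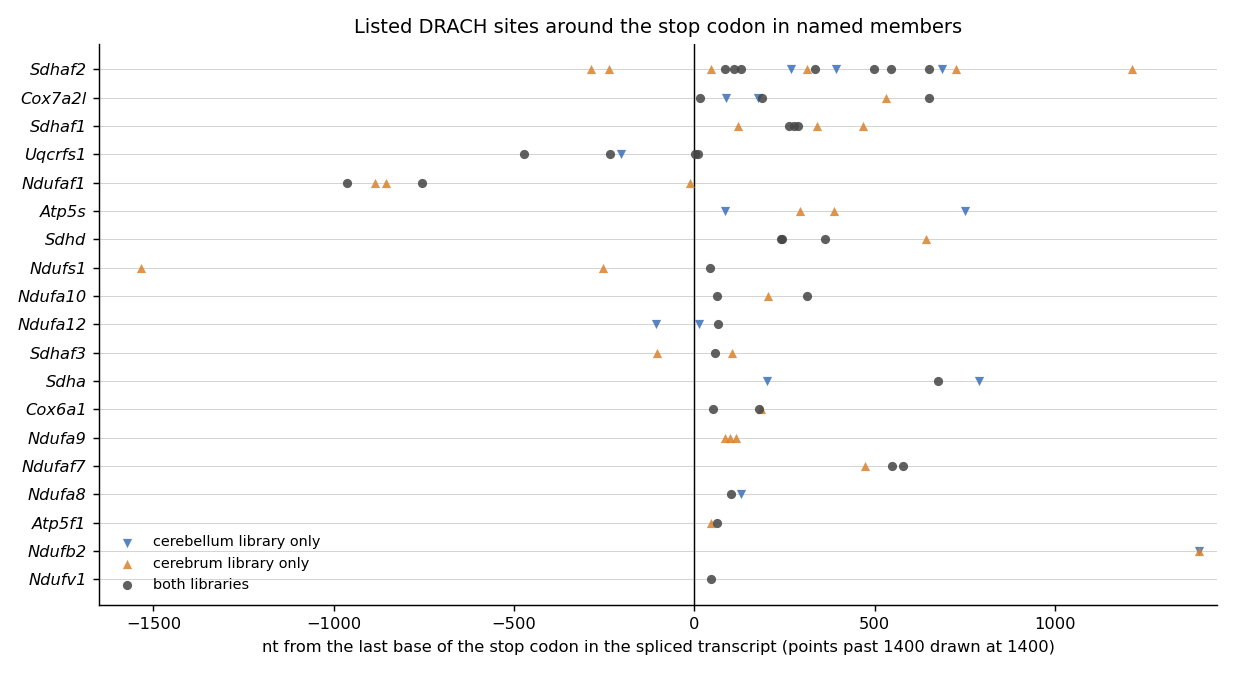
Position of listed DRACH sites relative to the end of the stop codon (0 on the x axis, in nt of the spliced transcript) in the members with the most DRACH sites; circles mark sites in both libraries, triangles sites in 1 library. Atp5s, Ndufa9 and Ndufb2 have no circles. In the other members drawn, circles lie to the right of the stop codon except in Uqcrfs1 and Ndufaf1, which also or only have them to the left.

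Among the DRACH 5-mers, GGACT stood near the top in each library. GGACT was listed at 8 of 123 member adenosines in each library (6.50%), GAACT at 8 and 12 of 152 (5.26% and 7.89%) and AGACT at 6 and 14 of 142 (4.23% and 9.86%). On representative isoforms, to which these counts refer, TGACC was listed at 0 of 138 and TAACC at 0 of 64 in either library, although 1 TGACC site was listed in the cerebrum on another coding isoform of Sdhaf2. The same 5-mers led in other coding genes, with GGACT at 7.57% and 13.3%, and the lowest was TAACC at 0.147% and 0.317%. GGACT made up 4.93% of their DRACH adenosines and 5.24% of those of other coding genes.

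The libraries differed mainly in sites outside DRACH. The cerebrum listed 214 member sites and the cerebellum 94, a ratio of 2.28, which was 1.44 for DRACH sites (89 and 62) and 3.91 for the rest (125 and 32). Over all nuclear coding genes these ratios were 2.12, 1.72 and 3.23. A DRACH motif was found at 66% of cerebellum member sites (55.9% to 74.7%) and 41.6% of cerebrum ones (35.2% to 48.3%), against 73.6% and 59.8% over all nuclear coding genes. Of the cerebellum member sites, 52.1% were also listed in the cerebrum (49 of 94, 42.1% to 61.9%). The share was 69.4% for DRACH sites (43 of 62, 57.0% to 79.4%) and 18.8% for the rest (6 of 32, 8.89% to 35.3%), below the 83.3% and 40.1% over all nuclear coding genes. Library depth is not known, and its part in these differences was not tested.

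Where the sites lay in the gene model went with the motif. Exons of coding transcripts held 203 of the 259 distinct member sites, and 101 of these were DRACH (49.8%, 42.9% to 56.6%). The other 56 lay only in exons of non-coding isoforms, 49 of them in retained-intron transcripts, and 7 of the 56 were DRACH (12.5%, 6.19% to 23.6%). Of the 45 sites in coding-transcript exons shared by both libraries, 43 were DRACH (95.6%, 85.2% to 98.8%), compared with 18 of 38 sites in the cerebellum alone (47.4%, 32.5% to 62.7%) and 40 of 120 in the cerebrum alone (33.3%, 25.5% to 42.2%). Over all nuclear coding genes these shares were 86.2%, 45.4% and 50.3%. Sites in the cerebrum alone were thus less often DRACH in the members than in coding genes at large, beyond counting error. Among all cerebrum sites in such exons, 83 of 165 were DRACH in members and 40 of 129 in cytosolic ribosomal protein genes. In mitochondrial ribosomal protein genes, 197 of 323 were. Sites of the cerebrum alone were not counted in those lists, so the lower share may not be particular to the members.

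**Figure D5:**
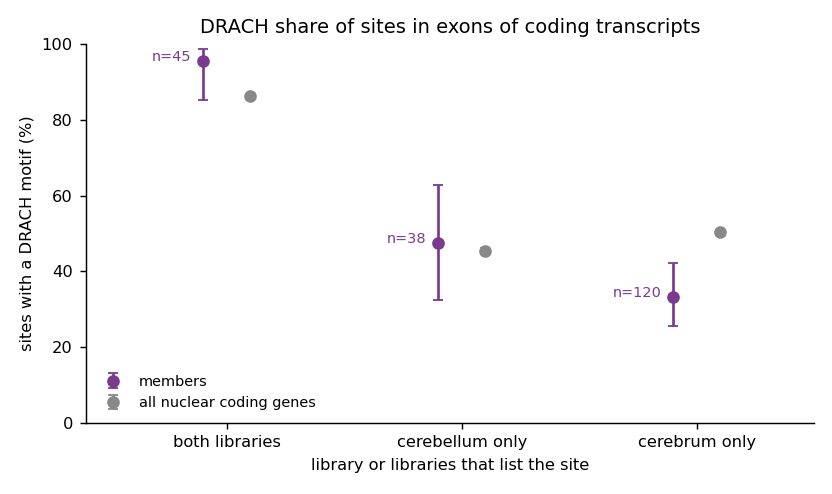
Percent of listed sites in exons of coding transcripts that have a DRACH motif, by the library or libraries that list the site, for members (purple, with the number of sites) and all nuclear coding genes (grey); bars are 95% Wilson intervals, those of the grey points being smaller than the symbol. Shared member sites are nearly all DRACH, and sites of the cerebrum alone have the lowest share.

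A few members had most or all of their sites in retained introns. Ndufa6, an accessory subunit, had 6 sites, 5 of them in retained-intron transcripts and 4 of these in both libraries, yet none was DRACH. They formed 2 tight groups, at chr15:82351113-82351121 and chr15:82353591-82353592. Atp5l, subunit g of complex V, had 13 sites, 11 of them in retained-intron transcripts and none of those shared or DRACH, besides 1 shared DRACH site 64 nt after the stop codon. Ndufa3 had 5 sites in the cerebrum within chr7:3617795-3617901, 4 of them DRACH, all in a retained-intron transcript, and 0 in the cerebellum.

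Other gene lists put these values in scale. Of the 92 cytosolic ribosomal protein genes, whose mRNAs are of like length (median 886 nt), 20 had a DRACH site in the cerebellum and 26 in the cerebrum, and 1.60% (1.11% to 2.28%) and 2.09% (1.53% to 2.86%) of their DRACH adenosines were listed, intervals that overlap those of the members. Of the 78 mitochondrial ribosomal protein genes (median 1302 nt), 41 and 61 had one, and 2.86% (2.33% to 3.51%) and 6.27% (5.47% to 7.18%) were listed. The mitochondrial ribosomal value lay above that of the members by intervals that do not overlap in the cerebrum but do in the cerebellum. The 13 protein genes of the mitochondrial chromosome, which encode further subunits, had 5 sites in each library in 4 genes, and 0 were DRACH.

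The pathway's other nuclear genes were taken from a list of assembly factors and electron carriers that the rule leaves out, of which 43 of 44 names were matched. A DRACH site was listed in 23 in the cerebellum and 28 in the cerebrum, against 34.3% and 44.2% of all protein-coding genes. Of the DRACH adenosines of these genes, 3.68% (2.90% to 4.67%) and 6.46% (5.41% to 7.71%) were listed. Over all nuclear coding genes the values were 3.03%, within the cerebellum interval, and 5.16%, below the cerebrum interval. In the cerebrum the share of this list was above the members' share on either choice of isoform, with intervals that do not overlap. In the cerebellum the intervals do not overlap on the representative isoforms (members up to 2.68%) but do when the members are taken on the APPRIS principal isoforms (up to 3.25%). Ttc19, a complex III assembly factor, had 9 DRACH sites in each library, Cox19, which serves copper delivery to complex IV, had 6 and 15, and Cycs, the mobile carrier cytochrome c, had 0 and 1. Cyc1, the cytochrome c1 of complex III, had 2 DRACH sites in the cerebellum list and 0 in the cerebrum list. Of 9 regulators of mitochondrial gene expression, 3 had a DRACH site in the cerebellum and 6 in the cerebrum, against the same 34.3% and 44.2% of all protein-coding genes. Ppargc1a, the coactivator of mitochondrial biogenesis, led them with 10 and 11.

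Nuclear genes of oxidative phosphorylation have many processed pseudogenes, which can take up reads. Of 2399 windows of 51 nt around member DRACH adenosines, 235 (9.80%) also occurred elsewhere in the genome when A was read as G, in 38 members, against 6.52% in other coding genes and 46.1% in cytosolic ribosomal protein genes. Of 83 listed member DRACH sites with such a window, 7 had a copy, in Atp5g1, Atp5l, Cox7a2l, Cox8a and Ndufa12, and their assignment is uncertain. Among copied windows 2.55% (1.18% to 5.46%) were listed in the cerebellum and 1.70% (0.664% to 4.29%) in the cerebrum, and among the others 1.99% (1.48% to 2.67%) and 2.96% (2.32% to 3.76%).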

How the data were processed

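Per the study's methods, GLORI-tools was run against mm10 and against a version carrying PWK bases at SNPs. The authors joined the calls of each library and set minimums for methylation rate and for reads. The deposited values are of another kind (unit other): each line is the genomic position and strand of a retained site, with neither rate nor coverage. A coverage filter favours abundant mRNAs. The methods state deamination at a higher temperature than the standard protocol, and the cerebrum file name carries an abbreviation of the other tissue, so tissues were taken from the sample labels.

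Positions were looked up in GRCm38 and in exons of GENCODE M21 on the same strand, a different release from that in the methods. Motif status of a site used the genomic 5-mer. Rates used the spliced 5-mer on the longest isoform whose coding sequence is complete and flanked by UTRs. Site places, such as distance from the stop codon, used the longest such isoform that covers the site. Standardised counts used classes of region, junction distance (100 and 200 nt) and transcript length (1000 and 2000 nt). No test was made with 1 library per tissue. Steps were tested on simulated data.

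Members and lists were chosen with earlier results of these data known. Named genes were the 20 members with the most distinct DRACH sites over both libraries, ties broken by total sites and symbol, with Ndufs1, Ndufv1, Sdha, Sdhb, Uqcrfs1, Cox4i1, Cox5a, Atp5a1 and Atp5b; others named were chosen after their values were seen, and some items are not reported here. Alternatives were isoform choice, motif, shared sites, overlapping genes and left-out members. Python 3.11.15, numpy 2.4.6, pandas 2.3.3, scipy 1.17.1 and matplotlib 3.10.9 were used.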

Additional observations from a re-analysis of the deposited data

Results flagged for a closer look

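Sites in introns of the members were in none of the comparisons. There were 11 in the cerebellum and 27 in the cerebrum, 33 positions in all, 5 of them in both libraries. DRACH motifs were found at 4 of the 11 and 5 of the 27. Of these sites, 7 and 13 lay in introns of the readthrough model named Atp5o, which spans other genes, and none of the remaining members had more than 2 in the cerebellum. With no control library among these samples, background was not measured.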

How the results depend on the processing

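Of 69 values recomputed under the alternatives for 13 results, 54 stayed within 1.5 times a count or ratio or within the interval of a share. With sites in both libraries only, members with a site fell to 25 in each library and the DRACH share was 87.8% in each. With DRACH sites only, members with a site in the cerebrum fell to 38, member sites to 62 and 89, the 3′ UTR share rose to 82.4% and 73.6%, and the cerebellum sites also in the cerebrum to 69.4%. In the cerebrum, the DRACH share was 52.9% on the APPRIS principal isoform and 50.3% in exons of coding transcripts, an alternative chosen after seeing the data. Limiting the percent of member DRACH adenosines listed to genes with a site in either library gave 3.71% in the cerebrum, against 7.32% in other coding genes limited likewise. The standardised ratio with that background, a limit that lowers it by construction, was 0.621 and 0.473. On the APPRIS principal isoform it was 1.39 and 1.07. The cause was not tested. No paired analysis was possible because each tissue had 1 library and no result came from a test. Depth is unknown, so low rates in single genes cannot be told from thin coverage.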
